A study of Mus musculus with 8 samples.

Results

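Perilipins coat lipid droplets, and the fat cells and muscle fibres of a muscle use different members of the family. The genes described here are the 5 mouse perilipin genes (Plin1, Plin2, Plin3, Plin4 and Plin5) and 5 genes used as adipocyte markers (Adipoq, Cidec, Cfd, Fabp4 and Pparg). They were chosen by name, with earlier results of these data known, as 10 of the 55487 genes in the deposited expression table, and all 10 had a mean above the minimum of 10 normalized counts that 16513 genes passed. The comparison made was which of the 10 rose and fell with the adipocyte gene Adipoq from mouse to mouse, and which did not.

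The mice were male C57BL/6J animals, 10 weeks of age, with both hindlimbs held in casts for 8 days. Over those days all of them received K14Q MOTS-c intraperitoneally at 15 mg/kg/day, divided over 2 injections per day. MOTS-c is a short peptide encoded in mitochondrial DNA, and K14Q is a form of it with a lysine replaced by a glutamine. The 8 mice form 1 group, and mice without casts, mice given sterilized water and mice given the unaltered peptide were not analysed here, so none of the values below measures an effect of the cast or of the peptide. The sample labels name vastus lateralis muscle, whereas the design text and the study's methods name gastrocnemius.

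Poly-adenylated RNA was sequenced, and the recovered total was 23985356 to 33012497 reads per mouse. Skeletal muscle markers were abundant in every library: Ckm, the muscle creatine kinase, had a mean of 228742 ± 55716 (SD, n = 8) normalized counts and Acta1, skeletal actin, a mean of 197544 ± 34762 (SD, n = 8). These genes are shared by many muscles and do not tell which muscle was taken. A normalized count is the number of reads on a gene divided by a size factor for that library, and it was used to compare mice within a gene. No library repeated another. Intact muscle holds fibres, vessels, connective tissue and some fat, and in such bulk RNA fewer cells of a type and less RNA per cell cannot be told apart. All p-values below measure only the spread between these 8 mice.

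Perilipins sit on the surface of the lipid droplet and control the access of lipases to the stored triglyceride. Plin1 is the perilipin of adipocytes, Plin2 and Plin3 are made by most cells, Plin4 is abundant in fat and in striated muscle, and Plin5 belongs to oxidative tissues, where it links droplets with mitochondria. Among the markers, Adipoq encodes the hormone adiponectin, Cfd the secreted protease adipsin (complement factor D), Cidec a droplet-fusion protein, Fabp4 a fatty acid carrier of adipocytes, capillary endothelium and macrophages, and Pparg the nuclear receptor that directs fat cell formation.

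The promoter sequences of Adipoq and Plin1, and of Plin4 and Plin5, are shown because these genes form the main contrast of the results. They come from RefSeq on GRCm38.p6, read 5′ to 3′ on the strand of the gene, and cover only the bases before every annotated start. RefSeq windows were found for 9 of the 10 genes, with none for Fabp4. The Adipoq stretch is chr16:23146286-23146535 on the plus strand, and the others lie on the minus strand at chr7:79732905-79733026 (Plin1), chr17:56109949-56110032 (Plin4) and chr17:56117607-56117798 (Plin5). Capitals mark matches, on either strand, to AGGTCA (an element read by nuclear receptors such as PPARs), TTGCNNAA (the core of a C/EBP site) or CAGCTG (an E-box of myogenic and other basic helix-loop-helix factors).
Adipoq: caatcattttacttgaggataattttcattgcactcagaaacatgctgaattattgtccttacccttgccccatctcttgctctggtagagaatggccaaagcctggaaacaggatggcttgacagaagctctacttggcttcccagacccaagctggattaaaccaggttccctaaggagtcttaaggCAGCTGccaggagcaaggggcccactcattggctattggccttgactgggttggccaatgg
Plin1: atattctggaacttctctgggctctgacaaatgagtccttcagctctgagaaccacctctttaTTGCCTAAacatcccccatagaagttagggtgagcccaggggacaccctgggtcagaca
Plin4: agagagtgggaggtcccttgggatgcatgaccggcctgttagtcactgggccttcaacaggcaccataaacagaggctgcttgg
Plin5: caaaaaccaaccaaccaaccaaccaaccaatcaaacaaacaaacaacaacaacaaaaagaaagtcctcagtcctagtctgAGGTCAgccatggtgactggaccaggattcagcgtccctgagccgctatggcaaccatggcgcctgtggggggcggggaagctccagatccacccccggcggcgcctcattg
The Adipoq stretch held 1 CAGCTG, the Plin1 stretch 1 TTGCNNAA (as TTGCCTAA), the Plin5 stretch 1 AGGTCA and the Plin4 stretch none, so no matches overlapped. Over all 32851 promoter windows of 250 bases, AGGTCA was present in 14%, TTGCNNAA in 9.56% and CAGCTG in 13.0%. Of the 13 full windows of these genes, AGGTCA was found in 4 (for Plin2, Plin5 and Pparg), TTGCNNAA in 3 (Cidec, Plin1 and Pparg) and CAGCTG in 3 (Adipoq, Cidec and Plin2). These matches are letters in a window and do not show binding, and no letter pattern searched was shared by Adipoq and Plin1 or by Plin4 and Plin5.

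Plin3, Plin4 and Plin5 lie on chromosome 17 on the minus strand, from 56277476 to 56292873, from 56100591 to 56109803 and from 56111601 to 56117596 (GRCm38, GENCODE M21). Only 1797 bases separate the end of Plin5 from the start of Plin4, while 159879 bases lie between Plin3 and Plin5. Plin1 lies on chromosome 7 (79720218 to 79732903) and Plin2 on chromosome 4 (86648386 to 86670060). The annotation places a 17-base overlap between Plin4 and Hdgfl2 on the opposite strand, and Gm44079 inside Pparg over 13176 bases, also opposite. Whether counting used strand is not given in the sources used here. Gm44079 was listed at a mean of 0 normalized counts, and Hdgfl2 at 962.

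Plin4 was by far the most abundant perilipin in these muscles. Its normalized count had a lowest, median and highest value of 15240, 20451 and 28738 over the 8 mice, above 99.3% of the genes tested. On a per-length scale, where levels of different genes can be compared, Plin4 stood at 199.6 ± 55.1 (SD, n = 8) TPM, which divides each count by transcript length and scales every library to the same sum. Plin4 RNA made up 84.1% of the perilipin TPM (81.1% to 85.6% in single mice), followed by Plin2 with 7.99%, Plin3 with 3.77%, Plin5 with 3.28% and Plin1, the adipocyte perilipin, with 0.823%. The order of the perilipins was the same in most mice, with Plin2 above Plin3 in 8 of 8 and Plin3 above Plin5 in 7 of 8.

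Across all 10 genes, the TPM order was Plin4 (199.6), Fabp4 (195.8), Cfd (46.2), Plin2 (19.1), Plin3 (8.80), Plin5 (7.57), Adipoq (7.52), Cidec (5.06), Plin1 (1.89) and Pparg (1.46). Fabp4 and Cfd were the only neighbours in that order whose ranges over the mice did not overlap. Plin4 was above Fabp4 in 4 of 8 mice and Plin5 above Adipoq in 5 of 8, so neither pair can be ordered beyond the spread. The Fabp4 level depends on the length used. With its principal transcript of 896 bases it was 195.8 TPM, and with all 4489 annotated exon bases it was 45.1 TPM, below Cfd at 53.2 TPM on that scale.

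The adipocyte genes varied most from mouse to mouse. The normalized count of Adipoq had a lowest value of 78.8, a median of 173 and a highest value of 286. Cidec ranged from 63.5 through a median of 151 to 264, and Cfd from 397 through 683 to 1448. For all of these genes mice 1, 2 and 3 were above the mean and mice 4, 6, 7 and 8 below it, with mouse 8 the lowest of all.

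Plin1 had a lowest, median and highest normalized count of 32.8, 104 and 143, with mouse 8 at the lowest value. Pparg was low throughout, from 30.7 through a median of 50.5 to 67.0 normalized counts, with mice 7 and 8 lowest. Fabp4 was the exception among the adipocyte genes, since its 8 values lay between 2662 and 4157 around a median of 3206.

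Expressed as the coefficient of variation (CV, the SD over the mean), the spread was 46.6% for Cfd, 46.0% for Cidec, 45.6% for Adipoq and 38.3% for Plin1. The median CV of all 16513 genes tested was 16.5%. The CVs of Cfd, Cidec and Adipoq were each above those of at least 95.9% of the genes tested, and that of Plin1 was above 92.0%. Pparg had a CV of 28.2%. Counting error alone gave a CV of 10.0% at the level of Plin1 and of 14.4% at that of Pparg. Plin1 was 4.34 times as high in the highest mouse as in the lowest, Cidec 4.16 times, Cfd 3.64 times and Adipoq 3.63 times.

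The other perilipins were steadier. Plin5 had the smallest spread, with values from 234.5 through a median of 288 to 305 normalized counts and a CV of 8.73%, above that of only 11.3% of the genes tested. Counting error alone gave a CV of 5.99% at that level. Plin3 ranged from 467 through 611 to 680, with a CV of 12.5%.

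Plin4 had a CV of 19.8%, and its values differed by 1.89 times between the lowest and the highest mouse. Plin2, which is induced by fatty acids in many cells, ranged from 458 through a median of 597 to 891 normalized counts with a CV of 24.4%. Mouse 2, the highest in Adipoq, was the lowest in Plin3, Plin4 and Plin5, whereas mouse 5 was the highest in Plin3 and Plin4. Scaling by library totals in place of the deposited size factors gave wider spreads of 31.4% for Plin2, 18.4% for Plin3, 24.8% for Plin4 and 14% for Plin5.

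**Figure D1:**
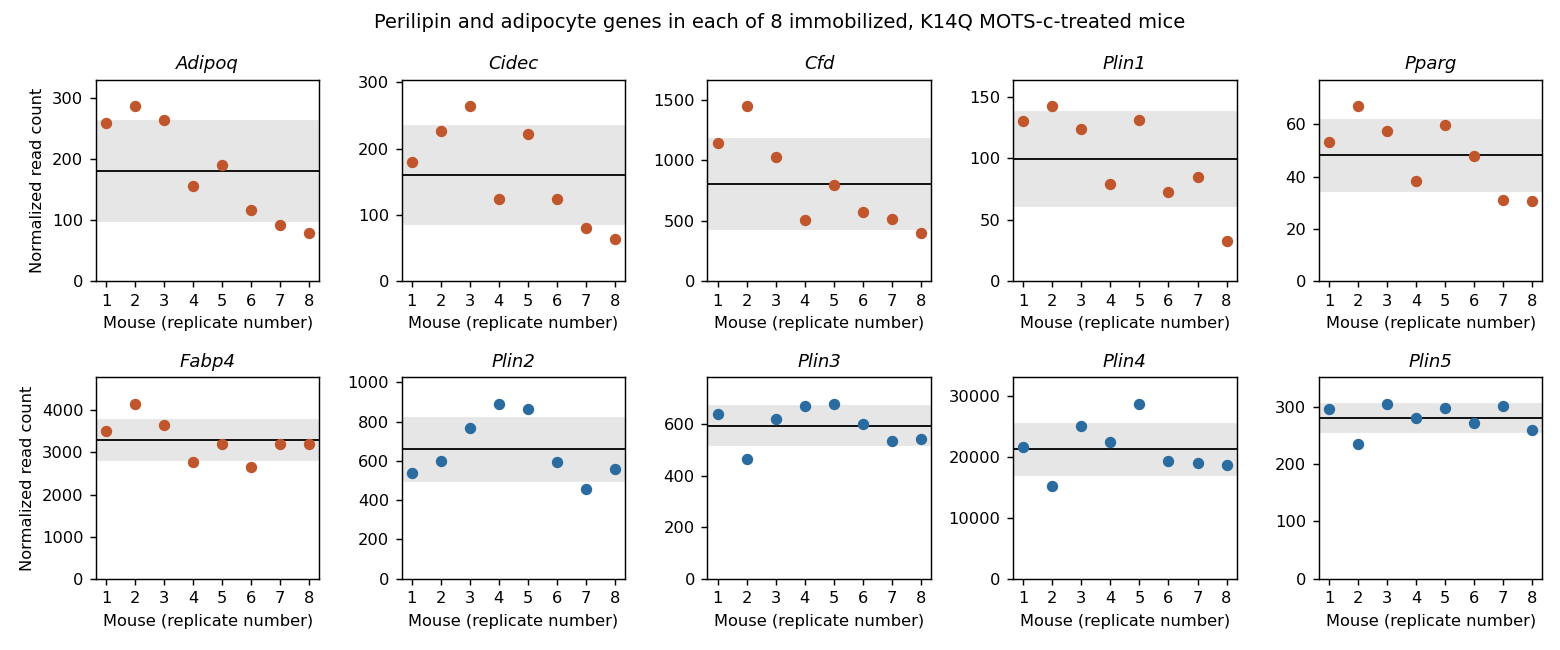
Normalized read count (vertical axis, linear, from 0) of each gene in each of the 8 mice (horizontal axis, replicate number). Points are single mice, the line is the mean and the grey band is the mean ± 1 SD. Adipocyte genes are orange and the other perilipins blue. Adipoq spans 78.8 to 286, while Plin5 stays between 234.5 and 305.

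The ratios between perilipins differed in how steady they were. The TPM ratio of Plin4 to Plin1 ran from 52.3 in mouse 2 to 279 in mouse 8, with a CV of 54.6%. The ratio of Plin4 to Plin3 stayed between 20.3 and 26.7, with a CV of 10.6%, and that of Plin4 to Plin5 between 21.7 and 33.4, with a CV of 14.4%. Among the adipocyte genes, the ratio of Cfd to Adipoq had a CV of 16.6%, whereas that of Fabp4 to Adipoq ran from 19.6 in mouse 1 to 58.4 in mouse 8.

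Which genes followed Adipoq between mice was asked with a slope, fitted by limma across the 8 mice as the change in log2(normalized count + 1) of a gene per doubling of Adipoq. A slope of 1 means that a gene doubles when Adipoq doubles. Of the 16512 other genes tested, 63 (0.382%) were higher with Adipoq at an adjusted p under 0.05 and 8 (0.0484%) were lower. Among the 9 other genes described here, 2 passed, and both were higher with Adipoq. Adjusted p-values are Benjamini-Hochberg values over all genes tested.

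Cidec had a slope of 0.97 ± 0.13 (SE; limma, Benjamini-Hochberg adjusted p = 0.0212). Cfd had a slope of 0.87 ± 0.11 (SE; limma, Benjamini-Hochberg adjusted p = 0.0212). Both calls depended on mice 2, 7 and 8: each was lost without any of these, with the Cidec slope then between 0.89 and 1.02 and the Cfd slope between 0.77 and 0.93. The call of Cfd was also lost without mouse 1, with a slope of 0.85, and both calls held without mouse 3, 4, 5 or 6. Cidec and Cfd kept their calls under every other scaling and filter tried and with edgeR on the recovered reads, but not with another predictor. With Plin1 in place of Adipoq the slopes were 0.94 for Cidec and 0.82 for Cfd (limma, Benjamini-Hochberg adjusted p = 0.0757 for both), and with Cfd in its place Cidec had 0.97 (0.138 by the same test).

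Plin1 had a slope of similar size, 0.84 ± 0.17 (SE), which did not pass (limma, Benjamini-Hochberg adjusted p = 0.0598). It passed with no filter on low genes (limma, Benjamini-Hochberg adjusted p = 0.0461) and without mouse 3 (0.0491 by the same test), and without mouse 8 its slope was 0.55. The slope of Pparg was 0.53 ± 0.13 (limma, Benjamini-Hochberg adjusted p = 0.105). Fabp4 had a shallower slope of 0.19 ± 0.09 (limma, Benjamini-Hochberg adjusted p = 0.371).

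None of the other perilipins passed with Adipoq. Slopes were 0.18 ± 0.15 (SE) for Plin2, 0.08 ± 0.14 for Plin4, 0.03 ± 0.10 for Plin3 and -5.3e-05 ± 0.086 for Plin5, with limma adjusted p-values from 0.595 (Plin2) to 0.9997 (Plin5). The signs of the Plin3, Plin4 and Plin5 slopes are not settled, since those of Plin3 and Plin4 were negative when Cfd was used in place of Adipoq, and that of Plin5 was positive under TMM factors or library totals. Mouse 2 weighed on all 3: without it the slopes were 0.25 ± 0.12 for Plin4, 0.15 ± 0.08 for Plin3 and 0.08 ± 0.09 for Plin5, and none passed. The slope of Plin2 was 0.07 ± 0.16 without mouse 7 and 0.27 ± 0.14 without mouse 1, and passed in neither case.

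The differences between Plin1 and Plin4 and between Plin1 and Plin5 were tested directly, with an exact permutation test over the 40320 pairings of the mice (two-sided). Because the genes were named with earlier results of the same mice known, these p-values are not independent evidence. The slope of Plin1 on Adipoq exceeded that of Plin4 by 0.76 ± 0.23 (SE; exact permutation p = 0.0053). It exceeded that of Plin5 by 0.84 ± 0.18 (SE; exact permutation p = 0.00084). Plin1 therefore followed Adipoq more steeply than either gene in these mice, but the margin over Plin4 was 0.51 (exact permutation p = 0.078) without mouse 8, which had the lowest Plin1, and 0.61 (exact permutation p = 0.025) without mouse 2. With Cidec in place of Plin1 the differences were 0.89 from Plin4 and 0.97 from Plin5.

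**Figure D2:**
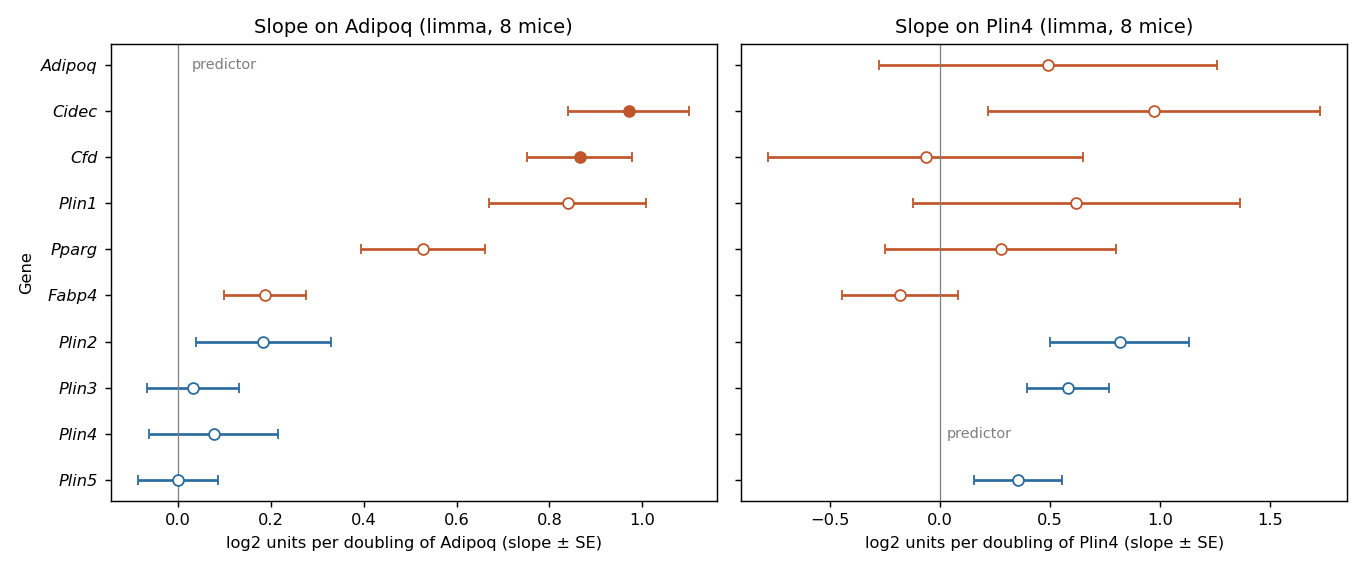
Slope of each gene (vertical axis) on Adipoq (left) and on Plin4 (right), in log2 units per doubling of the predictor (horizontal axes, different scales), from limma across 8 mice. Points are slopes, bars are ± 1 SE, and filled points have an adjusted p under 0.05. Cidec and Cfd are filled on the left, with slopes of 0.97 and 0.87, and no gene is filled on the right.

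Correlations were computed across the 8 mice on log2(normalized count + 1). Pearson's r with Adipoq was 0.94 for Cidec (exact permutation p = 0.00094; adjusted over all genes tested, 0.117), with Spearman's rho 0.93 (exact permutation p = 0.0022; adjusted 0.242). For Cfd r was 0.94 (exact permutation p = 0.0016; adjusted 0.126) and rho 0.90 (exact permutation p = 0.0046; adjusted 0.290). For Plin1 r was 0.87 (exact permutation p = 0.0021; adjusted 0.131) and rho 0.83 (exact permutation p = 0.015; adjusted 0.355). Without mice 7 and 8, the 2 farthest from the median of Adipoq, r was 0.82 for Cidec, 0.92 for Cfd and 0.91 for Plin1. No gene of the 16512 reached an adjusted p under 0.05 by this exact test, whose smallest adjusted p was 0.0723. With 8 mice its p cannot fall below 2.5e-05, so a single gene could not pass over 16512 genes, however well correlated.

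For Pparg r with Adipoq was 0.89 (exact permutation p = 0.0056; adjusted 0.171) and rho 0.90 (exact permutation p = 0.0046; adjusted 0.290). For Fabp4 r was 0.64 (exact permutation p = 0.089; adjusted 0.445) and rho 0.81 (exact permutation p = 0.022; adjusted 0.395). In mice 7 and 8 Fabp4 was near its mean while Adipoq was lowest, and without them r was 0.96 for Fabp4 and 0.68 for Pparg. For Plin4 r was 0.19 (exact permutation p = 0.640; adjusted 0.863) and rho 0.21 (exact permutation p = 0.619; adjusted 0.874). Without mice 7 and 8, r between Plin4 and Adipoq was -0.12. Without mice 2 and 5, the 2 farthest from the median of Plin4, it was 0.88, so the r of these genes depends on which mice are included.

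Pairs of members were compared in 2 groups, given here as a description. Among Plin1, Adipoq, Cidec, Cfd and Pparg the 10 pairs had r between 0.82 and 0.95, with a median of 0.88. Fabp4 and Plin2 were left out of these groups after their values were seen, and Fabp4 had lower r with these 5 genes, from 0.52 (Plin1 and Cidec) to 0.78 (Cfd), and -0.52 with Plin3. Among Plin3, Plin4 and Plin5 the 3 pairs had r between 0.69 and 0.88. Between these groups, the 15 pairs had r between -0.15 and 0.37, with a median of 0.12. This low relation rests on mouse 2, the highest in Adipoq and the lowest in Plin3, Plin4 and Plin5. Without mouse 2, a choice made after seeing the data, the 15 pairs had r between 0.49 and 0.88 with a median of 0.72, and the 3 pairs among Plin3, Plin4 and Plin5 had r between 0.28 and 0.78. The 10 pairs of adipocyte genes then had r between 0.78 and 0.95. Without any other single mouse, the median between the groups stayed between -0.11 and 0.20. Plin2 went with Plin4 (r = 0.67) and Plin3 (r = 0.63) more than with Plin5 (r = 0.15). All of these values share the same libraries and size factors.

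**Figure D3:**
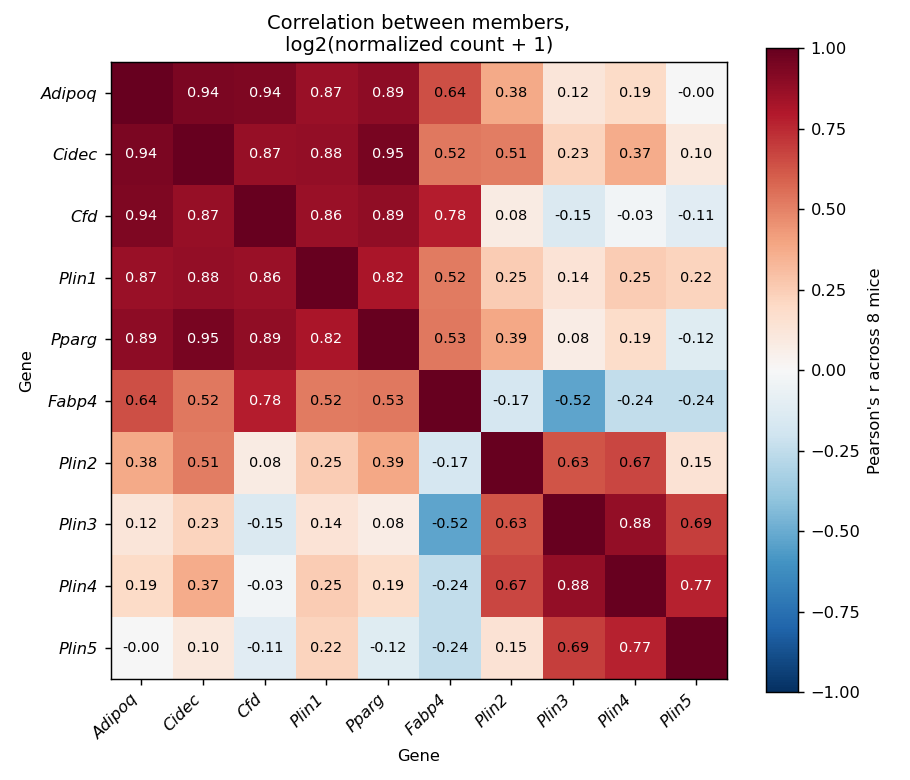
Pearson's r across the 8 mice for each pair of genes (both axes), on log2(normalized count + 1); red is positive and blue negative. Adipoq, Cidec, Cfd, Plin1 and Pparg at the upper left have r of 0.82 to 0.95 with each other, Fabp4 has 0.52 to 0.78 with them, and Plin3, Plin4 and Plin5 at the lower right 0.69 to 0.88. Without mouse 2 the 15 pairs between these groups have a median r of 0.72.

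The test with Plin4 as predictor passed no gene: by limma 0 of 16512 genes had an adjusted p under 0.05 in either direction (0% higher, 0% lower), although 1435 had an unadjusted p under 0.05 and edgeR on the recovered reads called 7. Under library totals limma passed 90 genes, and without mouse 1 it passed 25. None of the 9 other genes described here was among the 7 of edgeR. Plin3 had a slope of 0.58 ± 0.19 (SE) on Plin4 (limma, Benjamini-Hochberg adjusted p = 0.407), Plin2 one of 0.82 ± 0.31 (adjusted p = 0.478 by limma) and Plin5 one of 0.36 ± 0.20 (adjusted p = 0.651 by limma). The slope of Adipoq on Plin4 was 0.49 ± 0.77 (SE), and that of Cidec 0.97 ± 0.75. Without mouse 2 they were 2.17 ± 0.69 and 2.74 ± 0.60, neither past the threshold (limma, Benjamini-Hochberg adjusted p = 0.248 and 0.171). Plin2 was then at 1.26 ± 0.37, Plin3 at 0.47 ± 0.24 and Plin5 at 0.21 ± 0.26, and none passed.

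Plin3 was correlated with Plin4 at r = 0.88 (exact permutation p = 0.0041; adjusted 0.474) and rho 0.90 (exact permutation p = 0.0046; adjusted 0.420). Plin5 was correlated with Plin4 at r = 0.77 (exact permutation p = 0.024; adjusted 0.553) and rho 0.69 (exact permutation p = 0.069; adjusted 0.546). Without mice 2 and 5 these r were 0.71 and 0.56. Neither relation passed when adjusted over all genes.

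With Plin5 as predictor limma again passed 0 of 16512 genes (0% higher, 0% lower), with 269 at an unadjusted p under 0.05, and edgeR called 0. Under library totals limma also passed 0 genes, with 3228 at an unadjusted p under 0.05. Plin5 varied so little that the slopes on it were poorly set, as with Plin4 at 1.67 ± 0.60 (SE; adjusted p = 0.9999 by limma) and Plin3 at 0.99 ± 0.48. Its r with Plin3 was 0.69 over all mice and -0.19 without mice 2 and 8, so that relation rests on those mice.

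**Figure D4:**
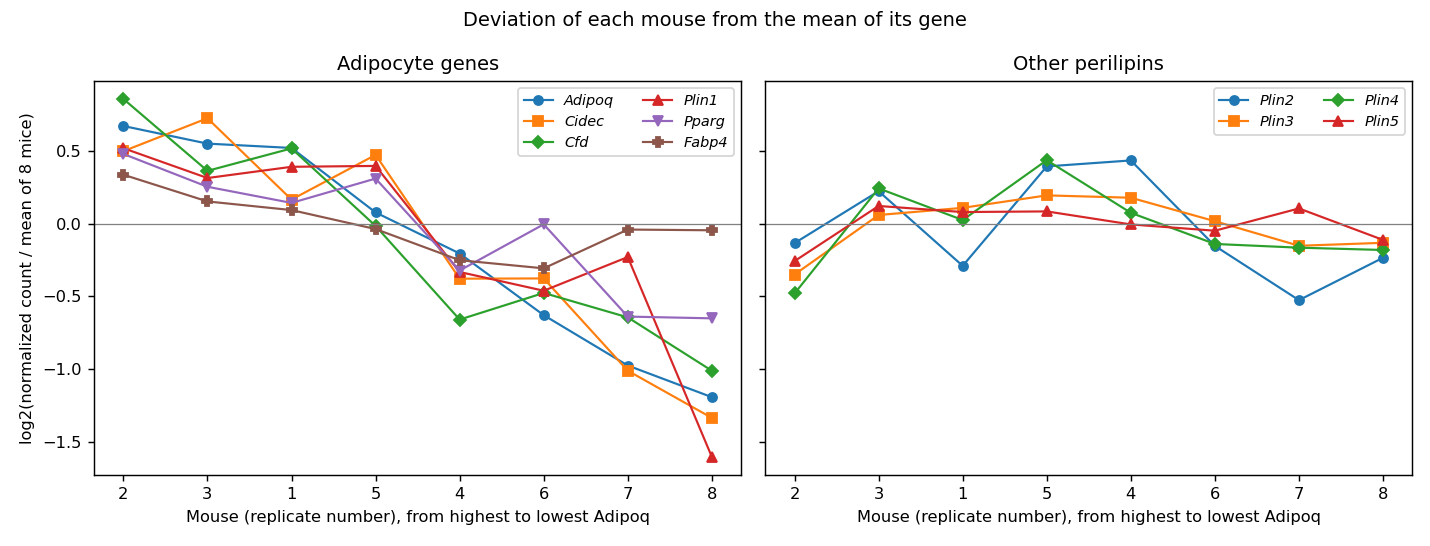
Deviation of each mouse from the mean of the gene, as log2(normalized count / mean of 8 mice) on the vertical axis, with the mice ordered on the horizontal axis from the highest to the lowest Adipoq. The left panel shows the 6 adipocyte genes and the right panel Plin2, Plin3, Plin4 and Plin5. Adipoq, Cidec, Cfd and Plin1 are lowest in mouse 8, while in the right panel mouse 2 is the lowest for Plin3, Plin4 and Plin5.

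Other genes of lipid storage and use were taken from lists of known markers. Of 12 white adipocyte genes besides those above, 11 were tested, none passed with Adipoq, and 10 had a slope above 0. Their median slope was 0.48, beside -0.01 for all genes tested, of which 48.1% had a slope above 0. Acvr1c, an activin receptor of adipocytes, had a slope of 1.05 ± 0.20 (SE; limma, Benjamini-Hochberg adjusted p = 0.0554), and Pck1, the enzyme that supplies glycerol for triglyceride, one of 0.61 ± 0.12 (SE; limma, Benjamini-Hochberg adjusted p = 0.0535). Lep, which encodes leptin, was at 6.57 to 42.4 normalized counts. Thrsp was the only tested gene of the list with a slope below 0, at -0.10. Of the 5 brown adipocyte genes, Ucp1 and Elovl3 had at most 3 reads in each library, and Prdm16, Dio2 and Cidea had means of 68.0, 41.5 and 17.8 normalized counts. None of these 3 passed with Adipoq, with slopes of 0.18, -0.45 and -0.25.

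Genes of fatty acid and triglyceride synthesis gave 0 of 14 passes with Adipoq and a median slope of 0.16. Slopes above 0 were found for 12 of the 14 (85.7%), beside 48.1% of all genes tested. Scd1, the stearoyl-CoA desaturase, spanned 932 to 5742 normalized counts and had a slope of 0.98 ± 0.22 (SE; limma, Benjamini-Hochberg adjusted p = 0.0773). The genes of droplets and lipolysis had 0 of 13 passes and a median slope of -0.01 on Adipoq. Pnpla2, the first lipase of triglyceride breakdown, had a slope of -0.01 ± 0.15 on Adipoq and of 0.88 ± 0.28 on Plin4 (limma, Benjamini-Hochberg adjusted p = 0.392). The list as a whole had a median slope of 0.12 on Plin4, with 7 of 13 genes above 0 (53.8%, beside 52.9% of all genes tested), and Pnpla3, an acylhydrolase of the same family as Pnpla2, was at -1.26.

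The genes of fat oxidation in fibres had 0 of 20 passes with each of Adipoq, Plin4 and Plin5. Their median slope was 0.01 on Adipoq, 0.26 on Plin4 and 0.50 on Plin5, beside -0.01, 0.03 and 0.03 for all genes tested. Slopes above 0 were found for 11 of the 20 on Adipoq, 17 on Plin4 and 19 on Plin5, beside 48.1%, 52.9% and 51.9% of all genes tested. Similar or larger medians were found in other lists, as 0.29 for macrophage genes on Plin4 and 0.75 for genes of fatty acid and triglyceride synthesis on Plin5. Medians below 0 also occurred, as for muscle fibre genes, at -0.45 on Plin4 and -0.44 on Plin5. Cpt1b, the carnitine palmitoyltransferase of muscle mitochondria, had a slope of 0.77 ± 0.20 (SE) on Plin4 (limma, Benjamini-Hochberg adjusted p = 0.292). The summed level of the fat oxidation list was lowest in mouse 2, at 127786 normalized counts, and highest in mouse 5, at 168491, with mouse 4 close to it at 167836. Much of the sum was Pdk4, an inhibitory kinase of pyruvate dehydrogenase, with a mean of 81513 normalized counts.

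Markers of other cell types were set beside Adipoq, and the endothelial sum moved with it. The summed level of 10 endothelial markers ran from 4894 to 6976 normalized counts and had r = 0.92 with Adipoq (exact permutation p = 0.0024; adjusted over 18 such relations, 0.044), with rho 0.90 (exact permutation p = 0.0046; adjusted 0.082). Without mice 2 and 6, the 2 farthest from the median of the endothelial sum, this r was 0.96. Much of that sum was Pecam1 and Cdh5, with means of 1597 and 1350 normalized counts. Although 9 of the 10 genes had a slope above 0 on Adipoq, r was 0.02 for Esam, 0.03 for Cldn5 and -0.28 for Egfl7. For 10 fibroblast markers the sum ran from 11032 to 20374 with r = 0.84 (exact permutation p = 0.011; adjusted 0.101) and rho 0.81 (exact permutation p = 0.022; adjusted 0.196). Without mice 1 and 2, the 2 farthest from the median of the fibroblast sum, r was 0.73. Much of that sum was Dcn, with a mean of 9785 normalized counts. All 10 genes had a slope above 0 on Adipoq, but r was only 0.02 for Col1a1, 0.21 for Mfap5 and 0.28 for Lum. For 10 macrophage markers the sum ran from 2329 to 5791 with r = 0.67 (exact permutation p = 0.073; adjusted 0.437) and rho 0.48 (exact permutation p = 0.243; adjusted 0.625), and without mice 7 and 8 r was -0.27. No marker of these 3 lists was at 3 or fewer reads in all libraries. Their part in the Adipoq slopes was not tested.

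In the Adipoq fit, 1 of 10 endothelial genes passed, namely Tek, an angiopoietin receptor, with a slope of 0.37 ± 0.07 (SE; limma, Benjamini-Hochberg adjusted p = 0.0479), beside 0.382% of all genes tested. Like every other call of that fit, it was lost without mouse 2, 7 or 8. Of the same list, Esam had a slope of 0.006, Cldn5 one of 0.012 and Egfl7 one of -0.089. No gene passed of 9 macrophage, 10 fibroblast and 8 muscle fibre genes tested. Their median slopes were 0.26 for endothelium, 0.52 for macrophages, 0.36 for fibroblasts and -0.07 for muscle fibres, beside -0.01 for all genes tested. Slopes on Adipoq were above 0 for 9 of 10 endothelial, 8 of 9 macrophage, 10 of 10 fibroblast and 1 of 8 muscle fibre genes, beside 48.1% of all genes tested. A high share above 0 was therefore not particular to the white adipocyte list. The summed muscle fibre markers had r = -0.13 with Adipoq (exact permutation p = 0.752; adjusted 0.902) and rho 0.02 (exact permutation p = 0.977; adjusted 0.977), and r = -0.57 with Plin4 (exact permutation p = 0.142; adjusted 0.511) and rho -0.67 (exact permutation p = 0.083; adjusted 0.345). Recovered reads had r = 0.32 with Adipoq (exact permutation p = 0.461; adjusted 0.811) and rho 0.38 (exact permutation p = 0.360; adjusted 0.637).

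Since Fabp4 is made by capillary endothelium as well as by adipocytes, slopes were also fitted on Pecam1, an endothelial adhesion molecule. Pecam1 ranged from 1343 to 1904 normalized counts. By limma 2 of 16512 genes (0.0121%) were higher with Pecam1 and 2 (0.0121%) were lower, and Cfd was among the higher, with a slope of 3.46 ± 0.39 (SE; limma, Benjamini-Hochberg adjusted p = 0.0306). The other called genes were Cyp2e1, which was higher, and Krt8 and A430010J10Rik, which were lower; these were named after their values were seen. The Cfd call was lost under library totals, with a slope of 2.85 (limma, Benjamini-Hochberg adjusted p = 0.0743). It was also lost without mouse 1, 2, 7 or 8, with slopes between 3.31 and 3.42. With Cdh5 in place of Pecam1, no gene passed.

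Fabp4 had a slope of 0.89 ± 0.31 (SE) on Pecam1 (limma, Benjamini-Hochberg adjusted p = 0.245), while Adipoq had 3.63 ± 0.52 (adjusted p = 0.0667 by limma), Cidec 3.47 ± 0.69 and Plin1 3.37 ± 0.62 (both with an adjusted p = 0.0878 by limma). Under library totals Adipoq and Cidec passed (limma, Benjamini-Hochberg adjusted p = 0.0130 and 0.0189), and Adipoq also passed with no filter (0.0280) and without mouse 4 (0.0443). Adipoq and Pecam1 were correlated at r = 0.93 (exact permutation p = 0.0021; adjusted over all genes tested with Pecam1, 0.157) with rho 0.90 (exact permutation p = 0.0046; adjusted 0.165). Fabp4 and Pecam1 had r = 0.78 (exact permutation p = 0.022; adjusted 0.289) and rho 0.81 (exact permutation p = 0.022; adjusted 0.271). Plin4 and Plin5 had slopes of 0.13 ± 0.55 and -0.05 ± 0.34 on Pecam1, and the signs of both changed under alternatives, Plin4 with Cdh5 as predictor and Plin5 under TMM factors or library totals. Their r with Pecam1 was 0.09 and -0.06 over all mice. Without mice 2 and 8, the 2 farthest from the median of Pecam1, it was 0.68 and 0.64, so these weak relations rest on those mice.

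The genes whose pattern over the 8 mice was most like that of Adipoq, by Pearson's r among the genes tested, were Plvap (0.99), Slco2a1 (0.99), Prex2 (0.99), Gm15931 (0.98) and Arxes2 (0.98). Plvap, a protein of endothelial diaphragms, ranged from 158 in mouse 8 to 302 in mouse 2, the same mice that were lowest and highest in Adipoq. Among those most like Plin4 were Rrp8 (0.98), Pla2g12a (0.97), Pde1b (0.97) and Fitm2 (0.97). Fitm2, which encodes a membrane protein that promotes droplet formation, ranged from 1692 in mouse 2 to 2516 in mouse 5. Those most like Plin5 were Cep41 (0.98), Gm13668 (0.93), Csl (0.92), Gm5873 (0.92) and Efr3b (0.89). These are the highest of 16512 values each and are given as a description.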

How the data were processed

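The authors trimmed and checked the reads with fastp and FastQC, mapped them with STAR to GRCm38.p6, assigned them to genes by summarizeOverlaps and normalized the counts in DESeq2. The deposited signal values are normalized read counts, with a single size factor applied to each library. Whole reads came back for 100% of the values, within 0.01 of a read, so counts were recovered. Strand use and the treatment of multi-mapped reads are not given in the sources used here. Recovered totals were 23985356 to 33012497 reads per mouse, and counting error was the square root of the recovered count.

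From the deposited values, genes averaging 10 or more normalized counts (16513 of 55487) were analysed on log2(normalized count + 1), where a slope understates the change of low genes. Slopes on Adipoq, Plin4, Plin5 and Pecam1 were fitted with limma (trend, two-sided, Benjamini-Hochberg over all genes tested, threshold 0.05), leaving the predictor out. Exact permutation tests used all 40320 pairings of the mice. TPM was computed from the principal transcript of each gene in GENCODE M21, which supplied symbols for 55227 identifiers. The scripts were tested on simulated data. The genes named were the 10 genes, those of 9 lists and the 5 most correlated with Adipoq, Plin4 and Plin5, of which 1 is not reported here. The members and lists were chosen with earlier results of these data known.

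Alternatives were TMM factors, library totals, a pseudocount of 5, at least 10 reads in every library, no filter, edgeR's quasi-likelihood test on the recovered reads, Plin1, Cfd or Cdh5 as predictor, Cidec in place of Plin1, and leaving out each mouse. R 4.3.3, limma 3.58.1, edgeR 4.0.16, Python 3.11.15, numpy 2.4.6 and pandas 2.3.3 were used.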

Additional observations from a re-analysis of the deposited data

How the results depend on the processing

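No paired analysis was possible because the 8 mice form only 1 group. The levels of the 10 genes moved by less than 1 SD under TMM factors, library totals or the median in place of the mean. Library totals shifted the median of all genes by -0.13 to 0.21 (log2) per mouse.

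The 71 genes called with Adipoq became 99 under TMM factors, 92 with no filter, 88 with at least 10 reads in every library, 72 with a pseudocount of 5, 44 under library totals, 35 by edgeR, 4 with Plin1 and 3 with Cfd as predictor, and 0 by the exact permutation of r. By that last test a single gene could not pass with 8 mice. Leaving out single mice gave 0 (without mouse 2, 7 or 8), 4 (without mouse 1) and up to 301 (without mouse 3). The 0 genes with Plin4 became 90 under library totals, 4 with at least 10 reads in every library, 9 with no filter and 7 by edgeR, and 0 to 25 without single mice, the highest without mouse 1. The 4 genes with Pecam1 became 7 under library totals, 2 by edgeR, and 0 with Cdh5 as predictor or by the exact permutation of r; without single mice there were 0 to 71, the highest without mouse 4. The slope of Plin1 less that of Plin4 on Adipoq was 0.51 to 0.98 without single mice, and missed the threshold without mouse 8.

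Signs turned for slopes near 0, none of which was called. With Cfd as predictor Plin3 was at -0.042 and Plin4 at -0.012. On Adipoq, Plin5 was at 0.012 under TMM factors, 0.058 under library totals, 0.0052 by edgeR and 0.042 with Plin1 as predictor. With Cdh5 as predictor Plin2 was at -0.12 and Plin4 at -0.31. On Pecam1, Plin3 was at 0.50 under library totals, and Plin5 at 0.00075 under TMM factors and 0.33 under library totals. On Plin4, Cfd was at 0.012 under TMM factors and 0.12 under library totals, and Fabp4 at 0.082 under library totals. On Plin5, Adipoq was at 0.37 under TMM factors, and library totals gave 0.81 for Adipoq, 0.14 for Fabp4 and 0.41 for Pparg.

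Leaving out single mice also turned signs. Slopes on Adipoq spanned -0.012 to 0.15 for Plin3 and -0.053 to 0.082 for Plin5. On Pecam1 they spanned -0.29 to 0.55 for Plin3, -0.14 to 1.08 for Plin4 and -0.23 to 0.42 for Plin5. On Plin4 they spanned -0.39 to 1.49 for Cfd, -0.32 to 0.25 for Fabp4 and -0.10 to 1.33 for Pparg. On Plin5 they spanned -1.20 to 5.05 for Adipoq, -1.66 to 4.66 for Cfd, -0.69 to 5.54 for Cidec, -0.69 to 1.16 for Fabp4, -0.35 to 6.98 for Plin1 and -1.13 to 2.21 for Pparg. The cause of these turns was not tested.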

Other observations

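Some of the 71 genes called with Adipoq lie outside the genes and lists described above, and those given here were named after their values were seen. Trf, the iron carrier transferrin, had a slope of 0.73 ± 0.08 (SE; limma, Benjamini-Hochberg adjusted p = 0.0188), and Hp, the haemoglobin-binding haptoglobin, one of 1.39 ± 0.17 (SE; limma, Benjamini-Hochberg adjusted p = 0.0206). The complement gene C3 had a slope of 0.85 ± 0.12 (SE; limma, Benjamini-Hochberg adjusted p = 0.0274). Of the 8 genes lower with Adipoq, Zfp36, which encodes an mRNA-destabilizing protein, had a slope of -0.64 ± 0.08 (SE; limma, Benjamini-Hochberg adjusted p = 0.0212). Leaving out mouse 2, 7 or 8 left 0 called genes, and leaving out mouse 1 left 4.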
